A study of Mus musculus with 10 samples.

Results

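The complement system was described through 7 genes that stromal cells make: C1ra, C1s1, C4b, C3, Cfb, Serping1 and Cd59a. They were taken by name, after RefSeq transcripts had been assigned to gene symbols and summed per gene. The rule used no measured value, but the choice was made with earlier results of these data known. All 7 passed the filter on low counts and stood among 14597 genes tested. The cells were preadipocytes, the precursors of fat cells, isolated from inguinal subcutaneous adipose tissue of male wild-type C57BL/6 mice. Of 10 RNA sequencing libraries, 5 represent cultures treated with DMSO alone, the vehicle, and 5 represent cultures treated with 2.5 µM bisphenol S (BPS), a chemical relative of bisphenol A, dissolved in DMSO. The title of the series names reactive oxygen species and the adipogenic action of bisphenols as its subject. The exposure time is not given in the sources used here, nor whether replicates came from separate animals or dishes, so p-values measure the spread between these libraries, which may be technical.

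Complement is a cascade of blood and tissue proteins that tags surfaces and can pierce membranes. In the classical route the proteases C1r and C1s, held by C1q, cut C4 and C2 to form an enzyme that cleaves C3. Factor B, the product of Cfb, builds the C3-cleaving enzyme of the alternative route, which amplifies the signal. C1 inhibitor, made from Serping1, blocks C1r and C1s in the fluid phase, and CD59, held on the cell surface by a lipid anchor, stops assembly of the membrane attack complex. Liver is the main source of the circulating proteins, and fibroblast-like cells of many tissues make several of them locally.

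Of the 7 members, 1 rose under BPS and 0 fell (quasi-likelihood F test of edgeR, Benjamini-Hochberg adjusted p under 0.05 over all genes). The background was 4.88% of all genes tested called in either direction and 3.06% called higher. Cd59a was the member that rose, from 9.59 ± 0.267 to 12.1 ± 0.537 CPM (library-scaled counts, SD, n = 5 each), a change of 26.3% with a 95% interval of 18.2 to 35%. The 4 components C1ra, C1s1, C3 and Cfb had lower means under BPS, with changes of -4.09, -4.33, -13.5 and -10.9%, and none of these differences passed the adjustment. C4b and Serping1 had almost equal means in both groups. At an unadjusted p under 0.05 there were 3 members, Cd59a, C1s1 and Cfb, where 18.8% of all genes tested had such a p.

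Total estimated counts ran from 37920689 to 42717227 per library, and replicates of a group differed by 4.13 to 8.77 times the sampling noise. BPS replicate 1 was the farthest from its group, with a mean chi-square per degree of freedom of 7.2 to the other BPS libraries against 4.71 to 5.9 for these. It also had the lowest CPM of all 10 libraries in 5 of the 6 members other than Cd59a. Without it the log2 fold changes were -0.03 for C1ra, -0.05 for C1s1, 0.03 for C4b, -0.18 for C3, -0.14 for Cfb, 0.02 for Serping1 and 0.33 for Cd59a, and Cd59a remained the 1 member called. Preadipocyte markers were present, and all 12 of that list passed the filter. Of the markers of other cells, over the floor of 3 counts in every library were 1 of 8 for adipocytes, 8 of 12 for macrophages, 10 of 10 for endothelium, 3 of 10 for mesothelium and 7 of 8 for mural cells. The most abundant markers by list were Cspg4 (mural cells, 1412 to 1676 counts per library) and Tek (endothelium, 359 to 500). For the other lists they were Lyz2 (macrophages, 240 to 467), Krt19 (mesothelium, 312 to 437) and Lipe (adipocytes, 113 to 182). Lep (adipocyte), Csf1r (macrophage) and Msln, Upk3b and Muc16 (mesothelium) had 0 counts in every library. DMSO libraries precede BPS libraries in the numbering of the labels, so a batch that followed that order and the treatment cannot be told apart.

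Sequences around the annotated start sites were compared between some members and their close copies in the genome. Cd59a lies beside Cd59b on mouse chromosome 2, and C1ra and C1s1 lie beside C1rb and C1s2 on chromosome 6. RefSeq windows of 300 bases (assembly GRCm38.p6, 250 bases before the start and 50 after) were matched for 4 of the 7 members. The authors' genome build is not given in the sources used here, and these positions belong to the RefSeq table alone. The windows of the member that rose and of its copy are shown first, on the plus strand at chr2:104095551-104095850 for Cd59a and at chr2:104070816-104071115 for Cd59b. Capitals mark each GGGNGTGG box, the letters that KLF and Sp factors prefer, and each GCGTG, the core letters that the aryl hydrocarbon receptor prefers.
Cd59a: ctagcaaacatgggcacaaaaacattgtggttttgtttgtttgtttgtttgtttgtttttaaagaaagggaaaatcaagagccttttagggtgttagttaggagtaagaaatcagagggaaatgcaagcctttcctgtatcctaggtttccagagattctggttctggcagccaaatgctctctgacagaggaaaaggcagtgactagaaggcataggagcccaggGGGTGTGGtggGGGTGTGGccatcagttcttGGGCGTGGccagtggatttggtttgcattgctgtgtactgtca
Cd59b: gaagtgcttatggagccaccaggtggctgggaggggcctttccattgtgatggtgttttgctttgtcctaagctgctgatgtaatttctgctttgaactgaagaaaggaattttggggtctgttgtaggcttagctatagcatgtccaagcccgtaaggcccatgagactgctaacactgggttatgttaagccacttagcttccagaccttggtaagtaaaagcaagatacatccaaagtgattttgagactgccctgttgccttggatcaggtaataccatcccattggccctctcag
The Cd59a window held 3 GGGNGTGG boxes, starting 24 and 13 bases before the annotated start and at base 8 after it, counting the start as base 1. The GCGTG match at base 10 lies inside the third box, so the same letters gave both matches. The Cd59b window held neither motif on either strand, and the window of C1s1, a member that did not rise, also held GGGNGTGG, at base 6. Among 32851 RefSeq windows of this length, 17.6% held at least 1 GGGNGTGG and 32.4% at least 1 GCGTG on either strand. The share of windows with 3 boxes was not counted. Only 37 aligned columns were found between both windows, 75.7% of them identical.

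The windows of C1ra (chr6:124512371-124512670, plus strand) and its copy C1rb (chr6:124570180-124570479, plus strand) are shown because they share a long stretch, set in capitals, while C1ra had 4306 to 5048 counts per library and C1rb, which was not tested, 0 to 14.
C1ra: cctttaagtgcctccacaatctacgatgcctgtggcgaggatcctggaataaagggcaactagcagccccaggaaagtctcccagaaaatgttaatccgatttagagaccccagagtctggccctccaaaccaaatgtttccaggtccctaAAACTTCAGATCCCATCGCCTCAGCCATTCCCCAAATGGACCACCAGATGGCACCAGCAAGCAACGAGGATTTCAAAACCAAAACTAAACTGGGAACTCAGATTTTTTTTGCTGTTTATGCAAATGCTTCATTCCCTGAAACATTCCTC
C1rb: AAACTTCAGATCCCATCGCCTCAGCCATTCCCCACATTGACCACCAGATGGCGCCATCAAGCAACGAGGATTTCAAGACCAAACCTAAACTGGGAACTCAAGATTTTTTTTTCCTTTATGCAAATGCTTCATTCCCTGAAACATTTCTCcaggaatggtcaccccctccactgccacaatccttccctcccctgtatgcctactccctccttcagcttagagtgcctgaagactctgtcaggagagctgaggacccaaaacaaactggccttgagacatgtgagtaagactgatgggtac
In the aligned stretch 139 of 150 columns were identical, or 92.7%. In C1ra it ran from 99 bases before the annotated start to base 50 after it, and in C1rb from 250 to 102 bases before the start. Both copies carried a TTCNNNGAA match, the letters STAT dimers prefer, which 8.3% of all windows held, and a TTGCNNAA match, the letters C/EBP factors prefer, which 10.8% held. The C3 window (chr17:57228087-57228386, minus strand) is shown because C/EBP factors are a textbook driver of C3 in the acute-phase response, and capitals mark its TTGCNNAA match, 45 bases before the start.
C3: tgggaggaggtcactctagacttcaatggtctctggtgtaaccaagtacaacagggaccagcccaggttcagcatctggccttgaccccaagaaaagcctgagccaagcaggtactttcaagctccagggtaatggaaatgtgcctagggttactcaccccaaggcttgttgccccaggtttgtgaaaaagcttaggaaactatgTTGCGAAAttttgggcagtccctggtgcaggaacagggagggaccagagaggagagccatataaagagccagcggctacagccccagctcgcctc
The core of the interferon response element (ISRE), searched on both strands, was found in the Cd59a window only among the 4 members with a window, and 3.44% of all windows held it. The kB site, the letters NF-kB prefers, was found in none of these 4 members and in 1.63% of all windows. A match of letters is a description of the window and not evidence of binding.

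Levels differed widely between members. Per kilobase of transcript, C1s1 was the most abundant, at 127 CPM per kilobase in DMSO, followed by Serping1 at 81.8 and C1ra at 42.3. C4b stood at 11.8, Cd59a at 5.67, Cfb at 3.84 and C3 at 0.653 CPM per kilobase in DMSO. The ranges over the 10 libraries did not overlap between neighbours in this order, the closest being Cd59a at 5.49 to 7.4 and Cfb at 3.21 to 4.22 CPM per kilobase. Lengths were those of the GENCODE transcript paired with the most abundant RefSeq transcript of each gene, and kallisto's own effective lengths were not used. RNA of the proteases that open the classical route and of their inhibitor was at a much higher level than C3 RNA. C3 codes for the protein on which all routes converge, and protein was not measured in these libraries.

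**Figure D1:**
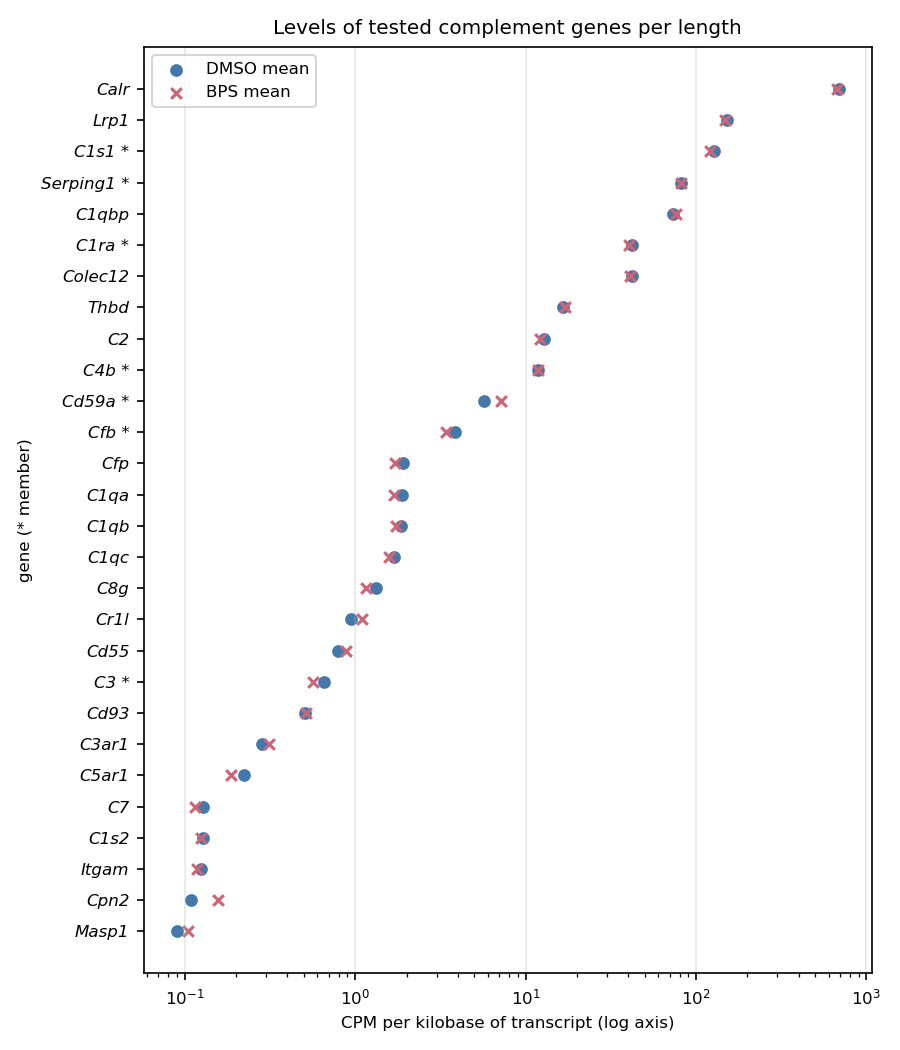
Mean CPM per kilobase of transcript (log axis) of 28 tested complement genes with a paired transcript length, circles for DMSO and crosses for BPS, with members starred. C1s1, Serping1 and C1ra stand at 42.3 CPM per kilobase or more in DMSO and C3 at 0.653, and the circles and crosses of most genes nearly coincide.

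C1ra, the protease that activates C1s, had 126.6, 128.1, 128, 127.7 and 120.6 CPM in DMSO replicates 1 to 5 and 110.3, 125.5, 121.5, 121.4 and 126.7 CPM in BPS replicates 1 to 5. The groups overlapped, and BPS replicate 1 was the lowest library. The log2 fold change was -0.06 (SE 0.034, 95% interval -0.14 to 0.02), with an adjusted p of 0.389 by edgeR.

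C1s1, the protease that cuts C4 and C2, had 365.7, 368.7, 384.3, 375.4 and 350.2 CPM with DMSO and 336, 355, 359.5, 345.6 and 368.7 CPM with BPS. Its mean was lower under BPS, 353 ± 12.6 against 369 ± 12.6 CPM (SD, n = 5 each), with overlap. The log2 fold change was -0.06 (SE 0.029), and the adjusted p by edgeR was 0.258.

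C4b, whose product carries the first surface tag of the classical route, had 64.12, 63.2, 66.75, 63.44 and 60.32 CPM with DMSO and 58.18, 65.63, 66.06, 64.91 and 62.8 CPM with BPS. Both means were near 64 CPM (63.6 ± 2.3 and 63.5 ± 3.24, SD, n = 5 each). The 95% interval of the log2 fold change ran from -0.08 to 0.08, or from -5.59 to 5.64%, and it included no difference (adjusted p = 0.987 by edgeR). Without BPS replicate 1 the value turned to 0.03 (SE 0.029). C2, which pairs with C4 in the same enzyme and lies next to Cfb in the major histocompatibility complex, stood at 34.2 ± 1.5 CPM with DMSO and 32 ± 1.63 CPM with BPS (SD, n = 5 each; adjusted p = 0.245 by edgeR). Tnxb, a matrix protein gene next to C4b, fell by 0.97 on the log2 scale (SE 0.203; edgeR, adjusted p = 0.0196), while C4b did not pass the test. Without BPS replicate 1 it was -0.82 (SE 0.171, adjusted p = 0.0209 by edgeR). With accessions matched by their exact version the value for Tnxb had the opposite sign, 0.07 (SE 0.796, adjusted p = 0.981 by edgeR).

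C3, the central component, was the least abundant member. It had 3.26, 3.76, 3.7, 2.74 and 3.3 CPM with DMSO and 2.66, 3.16, 3.09, 2.68 and 2.93 CPM with BPS, on 95 to 147 counts per library. The groups overlapped through DMSO replicate 4, which lay below 3 of the 5 BPS libraries. The log2 fold change was -0.21 (SE 0.099, 95% interval -0.43 to 0.01), with an adjusted p of 0.287 by edgeR.

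Cfb, the protease precursor of the alternative route, had 10.15, 11.56, 11.13, 10.66 and 9.08 CPM with DMSO and 8.78, 10.31, 9.21, 9.58 and 9.02 CPM with BPS. DMSO replicate 5 lay among the BPS libraries, and BPS replicate 2 lay among the DMSO libraries. The log2 fold change of -0.17 (SE 0.069, 95% interval -0.32 to -0.01) missed the threshold (edgeR, adjusted p = 0.219).

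Serping1, the inhibitor of C1r and C1s, had 141.7, 149.3, 150.6, 148 and 133.5 CPM with DMSO and 135.6, 147.9, 150.7, 140.7 and 148.8 CPM with BPS. The groups covered almost the same range. The 95% interval of the log2 fold change, -0.08 to 0.08, was centred on no difference (adjusted p = 0.994 by edgeR).

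Cd59a, the surface inhibitor of the membrane attack complex, had 9.28, 9.77, 9.63, 9.37 and 9.91 CPM with DMSO and 12.51, 12.44, 11.19, 12.26 and 12.21 CPM with BPS. Every BPS library lay above every DMSO library, and groups that did not overlap, in either direction, were found for 6.9% of all genes tested. The log2 fold change was 0.34 (SE 0.044; adjusted p = 0.0013 by edgeR), on 341 to 382 counts in each vehicle library and 413 to 499 in each exposed one. By p it was number 74 of the 14597 genes tested. Without BPS replicate 1 the log2 fold change was 0.33 (SE 0.047, adjusted p = 0.0037 by edgeR). In these bulk samples more RNA per cell and more cells of a type cannot be told apart.

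The summed levels of the mural and mesothelial marker lists were higher in BPS, as was Cd59a. The sum of 8 mural cell markers was 89.2 to 94.5 CPM in DMSO and 104 to 118 CPM in BPS. Of 7 tested mural markers 3 were called higher, where 3.06% of all genes tested were. These were Des (13.2 and 21 CPM), Mcam (20.1 and 25.9 CPM) and Cspg4 (39.1 and 43.5 CPM). Rgs5, Kcnj8, Abcc9 and Notch3 did not pass (adjusted p between 0.6 and 0.936 by edgeR). The sum of 10 mesothelial markers was 13.1 to 16.7 CPM in DMSO and 17.4 to 19.2 CPM in BPS, with Krt19 the 1 of 3 tested markers that rose. That sum was mostly Krt19 (9.34 and 11.2 CPM) and Bnc1 (4.97 and 6.13 CPM), while Wt1, the other tested marker, had 0.849 and 0.569 CPM (adjusted p = 0.155 by edgeR) and Msln, Upk3b and Muc16 were at 0. The sums of the adipocyte (3.45 to 5.11 CPM over all libraries), macrophage (11.7 to 22.1 CPM) and endothelial lists (26.7 to 34.3 CPM) overlapped between groups, and 0 of their tested markers changed. Of the 12 preadipocyte markers, Cd34 and Thy1 rose, from 45.2 to 54.8 and from 848 to 968 CPM. The part of mural or mesothelial cells in the rise of Cd59a was not tested.

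**Figure D2:**
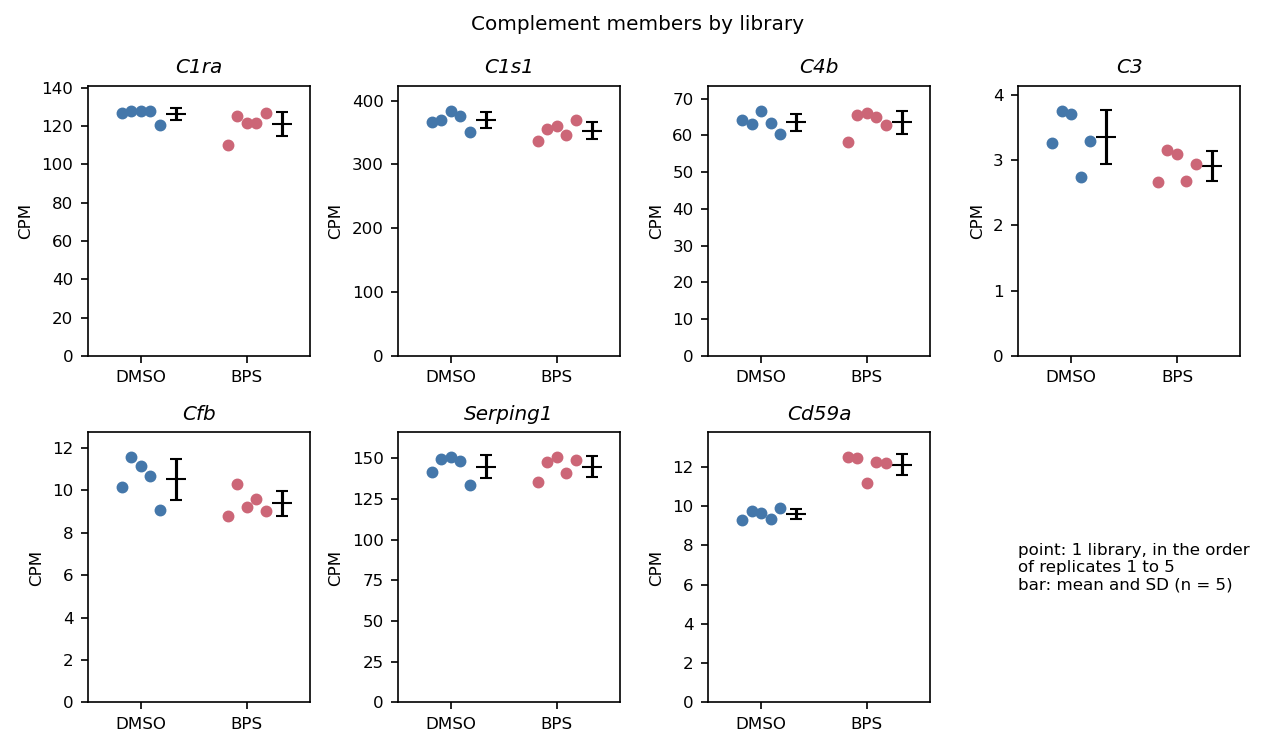
CPM of each member in the 10 libraries, 1 panel per gene with an axis from 0, points for libraries and bars for the mean and SD of 5. The BPS points of Cd59a (11.19 to 12.51) all lie above its DMSO points (9.28 to 9.91), and the groups overlap in the other 6 panels.

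Cd59a shares its fold and part of its sequence with Cd59b, the second mouse copy. Cd59b had 1.17, 1.25, 0.938, 1.16 and 1.12 CPM with DMSO and 1.93, 1.29, 1.38, 1.66 and 1.44 CPM with BPS, on 37 to 77 counts per library. Every BPS library again lay above every DMSO library, and the log2 fold change was 0.45 (SE 0.135) without passing the adjustment (adjusted p = 0.0813 by edgeR), and 0.36 (SE 0.127, adjusted p = 0.149) without BPS replicate 1. Of all 31-base words in the longest GENCODE transcript of Cd59a, 8.39% also occurred in Cd59b transcripts, so some reads could be divided between both. With both copies summed before the fit, the log2 fold change was 0.35 (SE 0.044, adjusted p = 0.00107 by edgeR).

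Other members have closer copies. The share of 31-base words also found in the copy was 56.9% for C1ra and C1rb, 48.8% for C4b and C4a and 36.5% for C1s1 and C1s2. The copies took few reads: C1rb had 0 to 14 counts per library, C1s2 5 to 21 and C4a 13 to 34, or 0.1, 0.0931 and 0.94% of the summed CPM of each pair. Values of the copies are uncertain, since a small share of misassigned reads of C1ra, C1s1 or C4b would be as large as their counts, and those of the 3 members depend little on that division.

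The deposited table resolves transcripts, and the 7 members had 21 of them, of which 16 passed the filter. Tested one by one, 0 of the 16 changed (edgeR with adjustment over 37588 transcripts, 0.335% of them called). For Cd59a the most abundant, NM_007652, went from 8.27 ± 0.784 to 11.4 ± 0.696 CPM (SD, n = 5 each), or by 0.46 on the log2 scale (SE 0.084; edgeR, adjusted p = 0.0758). The second, NM_001111060, went from 1.18 ± 0.8 to 0.621 ± 0.299 CPM. NM_007652 held 86.3 ± 7.84% of the Cd59a counts in DMSO and 93.9 ± 2.36% in BPS, a difference with p = 0.0873 in an exact two-sided permutation test. Neither transcript passed on its own, and the difference in their division was within the spread of the libraries.

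In Serping1 the division was uneven between libraries. The predicted transcript XM_006498623 took 41.2% of the gene's counts in DMSO replicate 1 and as little as 4.13% in another DMSO library, and 9.53 to 20.2% in BPS. The group means were 16.6 ± 15.2% and 16.5 ± 4.2% (SD, n = 5 each; exact two-sided permutation test, p = 0.992). The gene's summed level was steady, with a coefficient of variation of 4.92% in DMSO. In C1s1 the main transcript, NM_001097617, held 81.8 ± 2.13% in DMSO and 80.7 ± 2.54% in BPS.

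**Figure D3:**
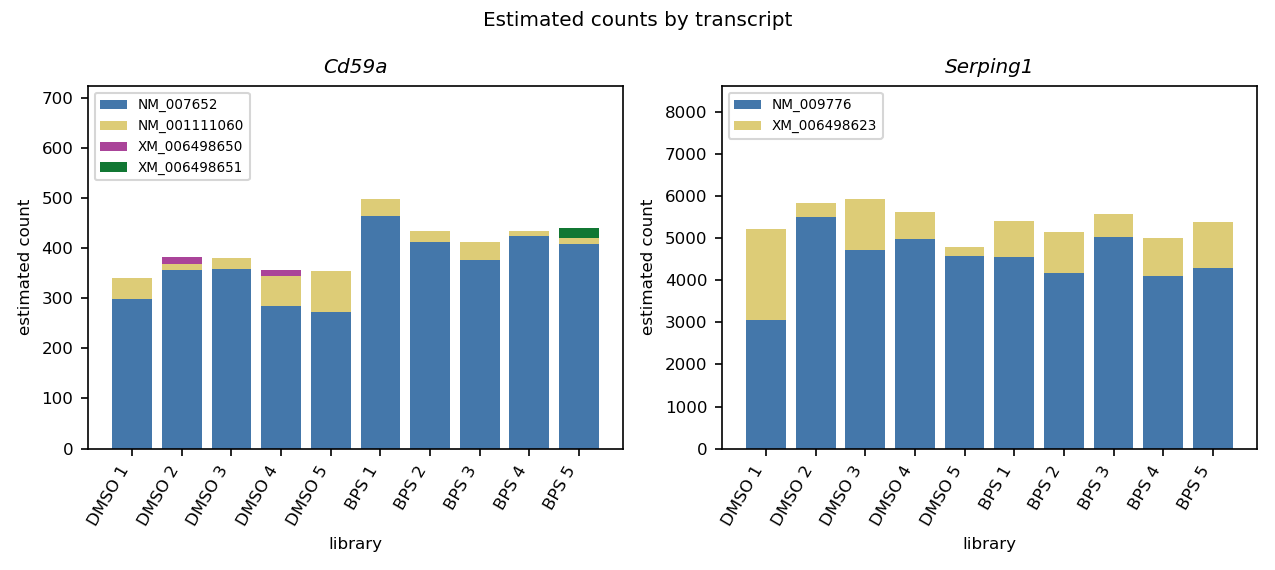
Estimated counts of each RefSeq transcript of Cd59a and Serping1, stacked per library on axes from 0. In Cd59a the NM_007652 segment is taller in the BPS libraries, and in Serping1 the XM_006498623 segment varies from 4.13 to 41.2% of the DMSO totals while the totals vary less.

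The members stand within a list of 63 complement genes, written with earlier results of these data known. Of these, 35 passed the filter, 1 rose (Cd59a) and 0 fell, against 4.88% of all genes called. Their median log2 fold change was -0.03 and 21 of 35 values were negative, where the median over all genes tested was 0. In 8 of the 35 the unadjusted p was under 0.05, a share near the 18.8% of all genes tested. Among 11 tested genes of the classical and lectin routes 9 values were negative (median -0.06), and all 3 of C3, Cfb and Cfp, the last coding for properdin, were negative (median -0.17). Of all 14597 genes tested, 7268 had negative values. C1ra, C1s1, C2, C4b, C3 and Cfb, which are on these lists, had their lowest CPM in BPS replicate 1.

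The 3 C1q chains, usually made by macrophages, were low and overlapping, with C1qa at 1.95 ± 0.425 CPM with DMSO and 1.77 ± 0.434 CPM with BPS (SD, n = 5 each). Colec12, a collectin on the cell surface, was abundant at 337 ± 9.29 and 330 ± 7.52 CPM (adjusted p = 0.529 by edgeR). The lectin route proteases were scarce, with Masp1 at 0.482 CPM in DMSO and Masp2 untested at 5 to 11 counts per library. Cfd, adipsin, the protease that activates factor B and a product of mature fat cells, had 0 to 2 counts in each library, which is below the floor of 3 counts and too few to show a difference.

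Terminal components, which form the membrane pore that CD59 blocks, were mostly scarce. Hc, the gene of C5, had 8.68 ± 0.492 CPM with DMSO and 9.06 ± 0.307 CPM with BPS (SD, n = 5 each). C7 had 0.343 and 0.308 CPM. C6 had 2 to 8 counts per library, C8a and C9 0 to 2, and C8b 0 in all libraries.

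Among fluid regulators, Clu, clusterin, which keeps terminal complexes soluble, stood at 12.7 ± 0.511 and 13 ± 0.502 CPM.

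Of 6 tested membrane regulators, 5 had positive log2 fold changes (median 0.18). These included Cr1l (0.21, SE 1.024) and Cd59b, which shares part of its sequence with Cd59a. Only Cd59a was called, where 4.88% of all genes tested were. Cd55, which dissociates the C3-cleaving enzymes, had 2.02 ± 0.303 CPM with DMSO and 2.24 ± 0.328 CPM with BPS (SD, n = 5 each; adjusted p = 0.595 by edgeR). Cd46, a cofactor for the cleavage of C3b, had 2.94 ± 0.474 and 2.87 ± 0.347 CPM, and Thbd, thrombomodulin, 61.3 ± 3.2 and 63.6 ± 5.54 CPM. Neither passed the test.

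Of the receptors, 8 were tested and 0 changed, with 2 at an unadjusted p under 0.05, where all genes tested had 4.88% called and 18.8% at such a p. C1qbp, a mitochondrial protein that can bind C1q, had 86.5 ± 1.57 CPM with DMSO and 90.1 ± 2.16 CPM with BPS (SD, n = 5 each; adjusted p = 0.146 by edgeR). The log2 fold changes of Calr (calreticulin) and Lrp1, both with many other roles, were -0.03 (SE 0.016) and -0.03 (SE 0.039), with adjusted p of 0.257 and 0.716 by edgeR. The anaphylatoxin receptor genes C3ar1 and C5ar1 were low, at 1.22 and 0.549 CPM in DMSO.

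**Figure D4:**
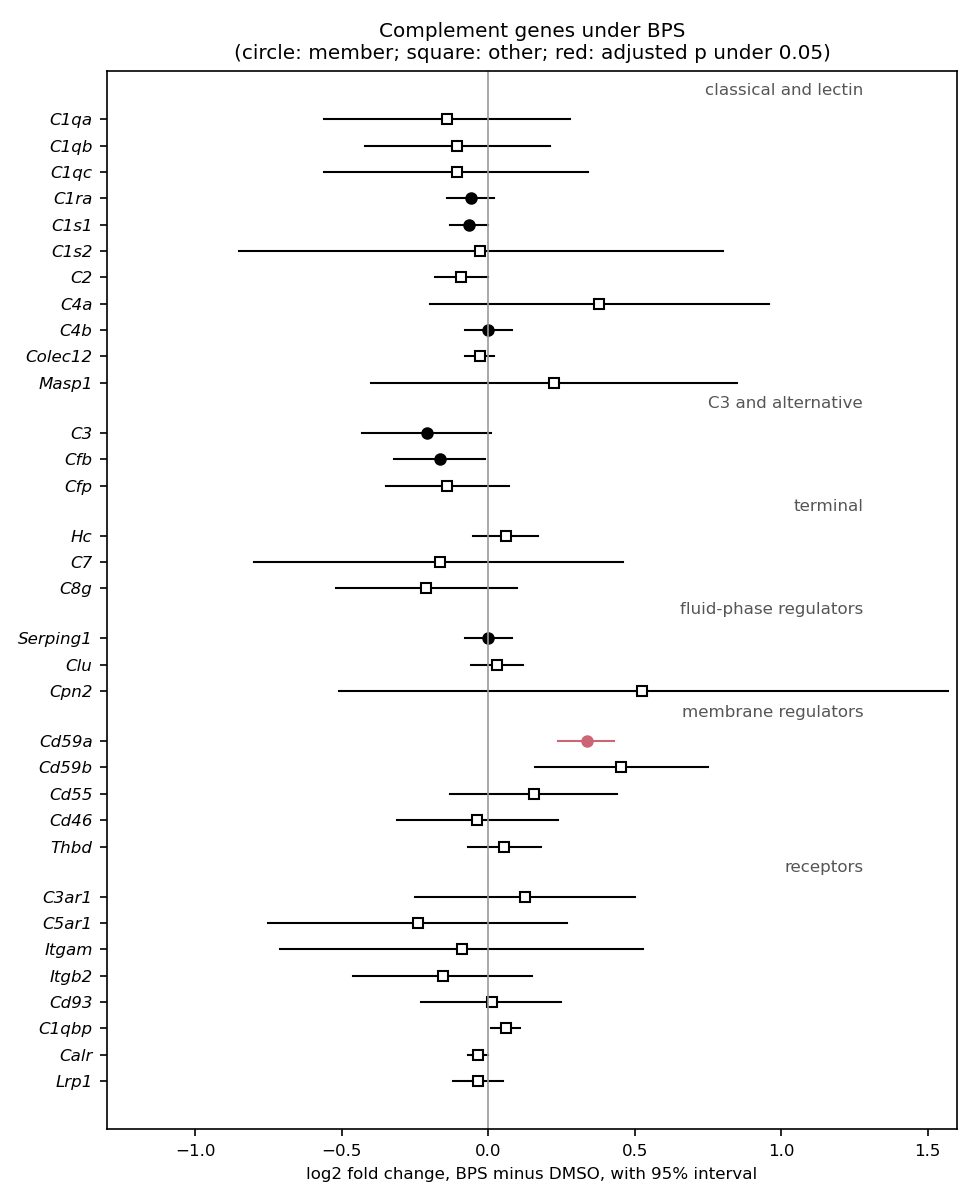
Log2 fold changes (BPS minus DMSO) with 95% intervals for 33 of the 35 tested complement genes, grouped by role, circles for members and squares for the others. Cr1l is left out because its interval would exceed the axis, and another gene is not shown. Cd59a at 0.34 is the only value drawn in red, for an adjusted p under 0.05.

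Complement genes of stromal cells are known to answer to interferon, interleukin 6 family and NF-kB signals, and 29 genes of these pathways were listed, also with earlier results known. Of these, 1 rose and 5 fell, against 3.06% of all genes called higher and 1.82% called lower. Stat2 fell by 0.34 (SE 0.067), Jak1 by 0.19 (SE 0.039), Tnfrsf1a, a receptor for tumour necrosis factor, by 0.13 (SE 0.018), Irf1 by 0.12 (SE 0.029) and Jak2 by 0.09 (SE 0.017) on the log2 scale. Lif, a cytokine of the interleukin 6 family, rose by 0.26 (SE 0.054). The adjusted p by edgeR were 0.0154, 0.016, 0.00238, 0.0353, 0.0139 and 0.0202 in that order. Irf1 missed the threshold in 11 of 18 alternatives, with adjusted p by edgeR up to 0.0843, 8 of them leaving out a library, DMSO replicate 1, 2, 4 or 5 or BPS replicate 2, 3, 4 or 5. Lif missed it without BPS replicate 2 or 4 (adjusted p = 0.0512 and 0.0525 by edgeR), with the replicate number as a block (0.0692) and with exact accession versions (0.312). Jak2 missed it with the block (0.053).

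Log2 fold changes of Stat3, Nfkb1, Cebpb and Cebpd were -0.01, -0.02, 0.05 and 0.01, with adjusted p by edgeR between 0.8 and 0.9. Il6 had 0.301 CPM with DMSO and 0.359 CPM with BPS (adjusted p = 0.687 by edgeR).

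Over 21 pairs of members and 10 libraries, log2 CPM of C1ra and C1s1 had Pearson's r = 0.87 (adjusted permutation p = 0.00714) and Spearman's rho = 0.94 (adjusted permutation p = 0.00462). Leaving out the 2 libraries farthest from the median of C1ra gave r = 0.81, and with group means removed r was 0.82. This was the 1 pair of 21 that passed. The other 14 pairs without Cd59a had r of 0.34 to 0.76, which became -0.39 to 0.68 without the 2 farthest libraries and 0.32 to 0.92 with group means removed. The 6 pairs with Cd59a had r of -0.65 to -0.12, which became -0.61 to 0.11 and -0.5 to 0.04 in the same order. None of these 20 pairs passed the adjustment, and several rest on the libraries left out. Libraries share depth, scaling and handling across genes, and BPS replicate 1 was low in most of the 6 genes. These values therefore describe the libraries, and a link between the genes was not tested.

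**Figure D5:**
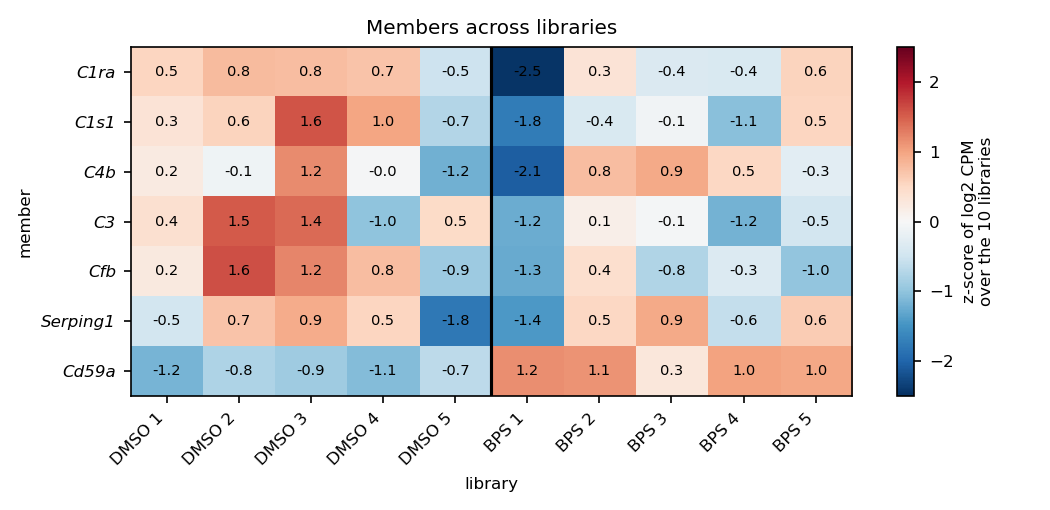
Z-scores of log2 CPM over the 10 libraries (colour and number) for each member, DMSO libraries left of the line. BPS replicate 1 is low in the first 6 rows, at -2.45 in C1ra, and Cd59a is negative in all DMSO and positive in all BPS libraries.

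Genes whose pattern over the 10 libraries was among the most like the mean z-score of the 7 members, of 12455 genes with a mean of at least 1 CPM, were Phldb2 (r = 0.914), Prrg3 (0.9), Gabra3 (0.898) and Ccp110 (0.893). With group means removed these values were 0.906, 0.917, 0.894 and 0.882. None of these 4 changed under BPS (adjusted p by edgeR between 0.603 and 0.935). They were picked to follow the members' mean z-scores, which overlapped between groups (-0.76 to 0.88 in DMSO, -1.29 to 0.42 in BPS). A lack of change is thus partly built into the choice. The likeness was chosen as the highest of many and is a description.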

How the data were processed

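RNA from 5 DMSO and 5 BPS libraries of mouse preadipocytes was prepared with a directional kit, per the labels. The authors deposited estimated counts per RefSeq transcript, made with kallisto 0.42.4 per the submitters' processing notes. The index, genome build and strand setting are not given in the sources used here. Accessions without version were assigned to gene symbols with the RefSeq and GENCODE vM21 tables: 86722 of 107384 transcripts, with 93.1% of the counts, gave 32903 genes. Estimated counts were summed per gene and rounded. Genes were kept by filterByExpr, scaled by TMM and tested with edgeR 4.0.16 (glmQLFit and glmQLFTest, R 4.3.3) on 2 groups, with Benjamini-Hochberg adjustment over 14597 genes and a threshold of 0.05. CPM were computed over TMM-scaled library sizes of counts assigned to genes. The SE was the absolute log2 fold change divided by the square root of F. Total counts were 38200573 to 42314795 in DMSO and 37920689 to 42717227 in BPS. A floor of 3 counts covers counting error only. Correlations used 100000 permutations.

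The alternatives were DESeq2 1.42.0 size factors and Wald test, library size alone, no filter, limma-voom (limma 3.58.1), a replicate block, exact accession versions, near-identical copies summed, transcripts tested singly, and each library left out. The procedure was tested on simulated data. The genes named were the members, their copies and neighbours, listed complement genes that passed the test or reached 10 CPM, called and selected inducers, and the 5 genes most like the members. Other genes named were chosen after their values were seen. Members and lists were chosen with earlier results of these data known. Results for some genes that these rules name are not reported here.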

Additional observations from a re-analysis of the deposited data

Results flagged for a closer look

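In 9 of 74 groups of 5 values, the highest or lowest library lay apart from the other 4 by more than 0.71 of the group's whole range (Dixon's 95% criterion), where chance gives about 3.7. Among members, C1ra in DMSO replicate 5 was low at 120.6 CPM (others 126.6 to 128.1), and Cd59a in BPS replicate 3 was low at 11.19 CPM (others 12.21 to 12.51), still above every DMSO library. Among other complement genes, C1rb in BPS replicate 5 was high at 0.2491 CPM (others 0 to 0.05417), C1qbp in BPS replicate 5 was low at 86.32 CPM (others 90.46 to 91.68), and Lrp1 in DMSO replicate 2 was high at 2499 CPM (others 2157 to 2245). Among inducers, Stat3 in DMSO replicate 1 was high at 271.5 CPM (others 261.8 to 264.4), Nfkb1 in DMSO replicate 4 was high at 80.52 CPM (others 75.92 to 76.96), and Lif in BPS replicate 1 was low at 11.13 CPM (others 11.82 to 12.06). Ccp110 in BPS replicate 1 was low at 10.03 CPM (others 17.55 to 19.5).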

How the results depend on the processing

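The call of Cd59a was kept in 18 of 19 alternatives. In those the log2 fold change was 0.323 to 0.365, with adjusted p from 5.32e-06 (DESeq2 Wald test) to 0.0173 (edgeR with the replicate block). With a library left out the log2 fold change was 0.325 to 0.365. Tested singly, the main transcript of Cd59a gave 0.461 (adjusted p = 0.0758 by edgeR) and 0 members were called. Leaving out a library kept 1 member called. The 712 genes changed became 374 with the replicate block, 328 with exact accession versions, and 449 to 774 with a library left out (449 without DMSO replicate 2, 462 without BPS replicate 2 or 4, 465 without BPS replicate 3). Complement genes called went from 1 to 2 with library size alone and in the DESeq2 Wald test, and were 1 to 2 with a library left out. Inducers called went from 6 to 3 with the block, 2 with exact versions and 4 to 6 with a library left out. Deviations from the group means had correlations of -0.078 to 0.1 between libraries with the same replicate number. Libraries with different numbers were not compared, so this cannot exclude pairing. The block changed no member's call. With library size alone 45.9% of calls were higher, against 62.8%.

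Values near 0 changed sign: C4b to 0.002 (copies summed), 0.005 (transcripts) and -0.02 to 0.029 (a library left out); Serping1 to -0.001 (DESeq2 size factors, no filter, Wald test), -0.014 (library size), -0.003 (exact versions) and -0.027 to 0.024; C1s2 to 0.039 (voom) and -0.202 to 0.248; Cebpd to -0.004 (library size) and -0.014 to 0.028. With a library left out Lrp1 ranged from -0.048 to 0.007, Nfkb1 from -0.025 to 0.001, Cebpb from -0.009 to 0.115 and Prrg3 from -0.065 to 0.056. Exact versions gave 0.074 for Tnxb and -0.276 for Clu. The cause was not tested. C4a, C1s2 and Cd59b had no value with copies summed, nor Cd59b, Stat2 and Jak2 with exact versions.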

Other observations

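CD59 belongs to the Ly6/uPAR family of small, mostly lipid-anchored surface proteins. Of 24 family genes, listed after the values of Cd59a were seen, 11 were tested. Cd59a, around which the list was built, alone passed the threshold in edgeR, which 4.88% of all genes tested passed. Ly6c1 stood at 12 ± 0.709 CPM with DMSO and 13.6 ± 0.618 CPM with BPS (SD, n = 5 each), without passing (adjusted p = 0.0582 by edgeR). Its groups did not overlap, as for 6.9% of all genes tested. Ly6a, the stem cell antigen Sca-1, had 186 CPM in both groups, and Ly6e had 385 ± 17.4 and 374 ± 13.4 CPM. Plaur, the urokinase receptor, had 17.2 ± 0.844 and 18 ± 1.26 CPM.

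Cr1l, the mouse gene for the membrane regulator Crry, was listed at 4.08, 0.281, 1.72, 1.71 and 0 CPM with DMSO and at 0, 0, 1.73, 3.89 and 3.46 CPM with BPS. Libraries of both groups stood at 0, and the log2 fold change of 0.21 had an SE of 1.024 (adjusted p = 0.942 by edgeR).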
